A study of Homo sapiens with 4 samples.

Results

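The TRAIL and death receptor genes were followed as 10 named members: the ligand gene TNFSF10, the receptor genes TNFRSF10A, TNFRSF10B, TNFRSF10D and FAS, the adaptor gene FADD, the caspase genes CASP8 and CASP10, the inhibitor gene CFLAR and the kinase gene RIPK1. They were found through their Ensembl identifiers, and all 10 were present in each of the 4 deposited tables, which together list 27629 genes. Cells of the established human bladder cancer line UM-UC-3 were transfected with 75 nM siRNA by a lipid reagent, and total RNA was sequenced after 48 h in paired reads of 100 bases. The control library came from cells given 1 negative control siRNA, and the si-hnRNPK, si-lncRNA-LBCS and si-PTBP1 libraries each came from cells given a mixture of 2 siRNAs to hnRNPK, the long non-coding RNA lncRNA-LBCS or PTBP1. hnRNPK and PTBP1 are RNA-binding proteins of the nucleus. Each condition was 1 library of 1 cell line at 1 time, so no difference can be set against the spread between cultures and no test between conditions was possible. The question here is how the genes of the extrinsic apoptosis pathway differed between each knockdown and the control siRNA.

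TRAIL, the product of TNFSF10, and Fas ligand are ligands that start apoptosis from the cell surface. TRAIL binds the death receptors DR4 (TNFRSF10A) and DR5 (TNFRSF10B), and the Fas receptor (FAS) binds Fas ligand. A bound death receptor recruits the adaptor FADD, which brings in procaspase-8 or procaspase-10, and these initiator caspases then set off the later steps of apoptosis. CFLAR encodes c-FLIP, a relative of caspase-8 that limits its activation, and the decoy receptor DcR2 (TNFRSF10D) binds TRAIL with a death domain that is cut short. RIPK1 is a kinase that can lead from the receptor complex to NF-kB signalling or to cell death.

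The libraries held between 54301152 and 70232674 reads on listed genes, and 3 reads, the limit that a count of 0 allows, corresponded to 0.0427 to 0.0552 CPM (reads per gene, scaled so that each library has an equal total over its listed genes). The targeted gene HNRNPK was at 783.1 CPM in control and 187.8 CPM in si-hnRNPK, and PTBP1 was at 280.0 CPM in control and 89.7 CPM in si-PTBP1. ENSG00000228412, the annotated gene that both lncRNA-LBCS siRNAs match, had 110 reads in control and 103 where si-lncRNA-LBCS is the label. That was 0.818 times the control CPM, with an interval from 0.619 to 1.08 that includes 1. The gene had 186 reads in si-hnRNPK and 214 in si-PTBP1, or 3.43 and 3.82 CPM. At 1.47 CPM it was lowest where si-lncRNA-LBCS is the label, and that library is called the LBCS-labelled library throughout. The sample labels list a qPCR value of 0.13 for the target of this library, with control at 1, which lies below the interval from the reads. The tables hold 1 value for the gene with all of its transcripts. For si-hnRNPK and si-PTBP1 the labels list 0.08 and 0.1, while the CPM ratios of HNRNPK and PTBP1 to control were 0.240 and 0.320. Among 12 urothelial markers, 5 reached 1 CPM in at least 1 library, with a summed level of 155.4 to 218.7 CPM, and UPK1A, UPK1B, UPK2, KRT5 and GATA3 were below 1 CPM. Of the markers of white blood cells and endothelial cells, 0 reached 1 CPM in any library. Among 4 fibroblast markers, 2 reached 1 CPM in si-PTBP1, where their summed level was highest at 4.32 CPM.

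The siRNAs are shown because part of an siRNA can also pair with mRNAs that are not its target. In each sense strand the 7 capital letters are the bases that an mRNA must hold to pair with bases 2 to 8 of the guide strand, the seed, and the letters tt are the overhang.
control siRNA: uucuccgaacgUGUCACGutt
si-hnRNPK siRNA 1: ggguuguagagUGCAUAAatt
si-hnRNPK siRNA 2: gccuccaucuaGAAGAGAutt
si-lncRNA-LBCS siRNA 1: gcugcucauuuGUCUGAUctt
si-lncRNA-LBCS siRNA 2: ggugguagucaACACAAAutt
si-PTBP1 siRNA 1: gccucaacgucAAGUACAatt
si-PTBP1 siRNA 2: cccucauugacCUGCACAatt

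The whole target of an siRNA was found in 0 of the 10 members. The capital letters of hnRNPK siRNA 1 were found in the longest annotated 3' UTR of 0 members, and those of hnRNPK siRNA 2 in the 3' UTRs of CASP10, CFLAR and RIPK1. Over 11919 genes, 10.98% and 19.66% held these letters. The letters of PTBP1 siRNA 1 were found in TNFSF10 and TNFRSF10A, and those of PTBP1 siRNA 2 in FADD, CASP10 and CFLAR, against 13.1% and 15.0% of genes. The letters of lncRNA-LBCS siRNA 1 were found in 0 members and those of siRNA 2 in TNFSF10, CASP10 and CFLAR, against 9.38% and 18.2% of genes. The letters of the control siRNA were found in TNFRSF10D, against 3.20% of genes. TNFRSF10B, FAS and CASP8 held the letters of none of the 7 siRNAs. A match of 7 letters is a description of the sequence, and its part in any level was not tested.

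Changes are given as differences in log2(CPM + 1) between a knockdown library and the control library, on which the change of a low gene appears smaller than it is. A gene is called raised or lowered here when this difference is 1 or more in size, among genes that reach 1 CPM in at least 1 of both libraries. Each ratio of CPM has a 95% exact Clopper-Pearson interval from the reads of both libraries, and such intervals cover counting error only, since reads without molecular identifiers are not independent molecules. Of the 10 members, 8 reached 1 CPM and could be called in each comparison, and TNFSF10 and CASP10 could not. In bulk RNA, fewer cells that express a gene cannot be told apart from less of its RNA per cell.

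None of the 8 members was raised or lowered by 1 or more in any of the 3 comparisons. Against control, 3.55% of the 13672 genes tested in si-hnRNPK were raised and 3.93% were lowered. In the LBCS-labelled library 0.378% of 13492 genes were raised and 1.01% were lowered, and in si-PTBP1 2.92% of 13855 genes were raised and 0.613% were lowered. With shares this small, 0 of 8 members past the threshold is close to what the whole table shows. The differences below the threshold are described by their signs and medians. In si-hnRNPK 5 members were higher than in control and 3 were lower, with a median of 0.07 against -0.11 over all genes tested, and RIPK1, one of the 3, was at 0.12 when the geometric mean of the other libraries replaced control. In the LBCS-labelled library 1 was higher and 7 were lower, with a median of -0.25 against -0.01 over all genes. In si-PTBP1 1 was higher and 7 were lower, with a median of -0.22 against 0.12 over all genes, and TNFRSF10A and CFLAR, among the 7, were at 0.05 and 0.03 against that geometric mean. These 3 comparisons share the control library.

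At this depth most genes tested differed beyond counting error between each knockdown library and control. An exact binomial comparison of the reads, adjusted by the Benjamini-Hochberg method and called at a q of at most 0.05, called 7 of 8 members in si-hnRNPK, where it called 79.5% of all genes. It called 7 of 8 in the LBCS-labelled library, where it called 70.2% of genes, and 6 of 8 in si-PTBP1, where it called 73.5%. That comparison is between 2 libraries and not between conditions, and the members' shares were near those of all genes.

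**Figure D1:**
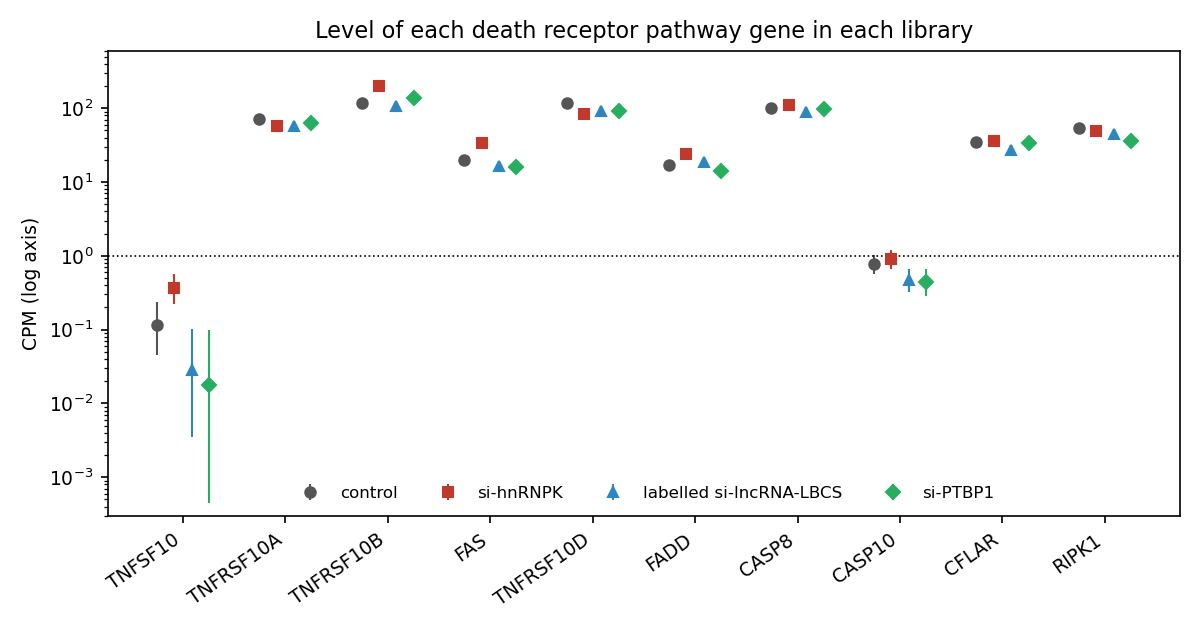
CPM of the 10 genes in the 4 libraries, on a log axis; each point is 1 library and each bar its 95% interval of counting error, with a dotted line at 1 CPM. TNFSF10 and CASP10 lie below 1 CPM in every library, and TNFRSF10B reaches the highest level, 197.7 CPM, in si-hnRNPK.

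TNFSF10 (ENSG00000121858, minus strand of chromosome 3, 172505508 to 172523507 on GRCh38), which encodes the ligand TRAIL, was close to the limit of detection. It had 7 reads in control, 20 in si-hnRNPK, 2 in the LBCS-labelled library and 1 in si-PTBP1. These were 0.114, 0.368, 0.0285 and 0.0178 CPM, so the si-hnRNPK library was the highest and the last 2 were below the level of 3 reads. The ratio of si-hnRNPK to control was 3.23 with a counting interval from 1.31 to 9.04, and the difference in log2(CPM + 1) was 0.30. FASLG, the gene for Fas ligand, was not listed. Over the 3 changes against control, the genes reaching 1 CPM in any library whose changes lay closest to those of TNFSF10 were ZC3H7B, GMPPA and ZNF574, at Euclidean distances of 0.0221, 0.0440 and 0.0492, and for so low a gene this likeness describes small differences only.

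TNFSF10 is known as a gene that interferon can switch on, and interferon-stimulated genes were high in si-hnRNPK. Of 16 genes on an interferon-stimulated list, all 16 were tested in si-hnRNPK. There 15 were raised by 1 or more, with a median of 2.81, against 3.55% of all genes raised. IFI44L, OAS2 and MX1 reached 1 CPM only in si-hnRNPK, so they were tested only through the library where they were high. The other comparisons leave them out. In the LBCS-labelled library 1 of 13 was raised and 2 were lowered, against 0.378% and 1.01% of all genes. In si-PTBP1 0 of 13 were raised and 2 were lowered, against 2.92% and 0.613% of all genes. IFIT1, which encodes an interferon-induced protein that binds viral RNA, was at 19.6 CPM in control, 466.3 in si-hnRNPK, 19.7 in the LBCS-labelled library and 12.1 in si-PTBP1. Its ratio of si-hnRNPK to control was 23.8, a change of 4.50, and 0% of the genes tested lay above it. The same ratio of TNFSF10 was 3.23 (1.31 to 9.04), on 20 and 7 reads, at 0.368 CPM in si-hnRNPK. The promoters of both genes are shown because both hold the letters of an interferon response element, GAAA and GAAA with any 2 bases between them or the reverse complement, which stand in capitals. The sequences are from RefSeq on GRCh38.p14, run 5' to 3' on the strand of the gene and end at the base before the gene's first start in GENCODE release 29. The TNFSF10 stretch is chr3:172523508-172523680 on the minus strand and the IFIT1 stretch is chr10:89392373-89392545 on the plus strand.
TNFSF10 promoter: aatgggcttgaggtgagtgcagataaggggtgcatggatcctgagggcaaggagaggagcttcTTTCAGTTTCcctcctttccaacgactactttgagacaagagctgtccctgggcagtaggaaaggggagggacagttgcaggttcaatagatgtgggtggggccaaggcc
IFIT1 promoter: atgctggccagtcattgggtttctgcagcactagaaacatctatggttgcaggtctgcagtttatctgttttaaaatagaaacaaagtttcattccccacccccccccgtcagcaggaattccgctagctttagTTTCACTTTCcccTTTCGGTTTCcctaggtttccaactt

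The TNFSF10 letters began 110 bases before that start, and those of IFIT1 began 39 and 26 bases before it, in a pair. Of 35116 RefSeq promoter windows of 250 bases, 3.02% held these letters on either strand. RefSeq gave 15 windows for 6 of the 10 members, and 3 of these windows, of TNFSF10 and RIPK1, held the letters, against 10 of 16 windows of the interferon-stimulated list. Windows of 1 gene are not independent. By gene the counts were 2 of 6 members and 8 of 12 genes of that list, against 1014 of all 27305 genes. The letters of a STAT site, TTCNNNGAA, were found in 1 of the 15 windows, that of CASP8, or 6.67% against 6.57% of all windows. The letters of an NF-kB site, GGG and TNCC with any 3 bases between them, were found in 3 of the 15 windows, of CASP8, CFLAR and FAS, or 20.0% against 18.9% of all windows. Both of these shares of windows were near the background. By gene they were 1 of 6 and 3 of 6 members, against 2208 and 6033 of all 27305 genes. Each of these is a match of letters in a window, and binding was not measured here.

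Among the tested members, the widest differences in log2(CPM + 1) in si-hnRNPK were those of the receptor genes TNFRSF10B and FAS. TNFRSF10B (ENSG00000120889), which encodes the death receptor DR5, was at 116.4 CPM in control, 197.7 in si-hnRNPK, 106.8 in the LBCS-labelled library and 136.6 in si-PTBP1. The si-hnRNPK library was the highest and the LBCS-labelled library the lowest. The ratio of si-hnRNPK to control was 1.70 (interval 1.65 to 1.75), a difference of 0.76 on the log2(CPM + 1) scale, and 6.39% of the genes tested lay above it. In the LBCS-labelled library the difference was -0.12, and in si-PTBP1, where the median of all genes was 0.12, it was 0.23.

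FAS (ENSG00000026103, plus strand of chromosome 10, 88990582 to 89015785), the receptor of Fas ligand, was at 19.6 CPM in control, 34.0 in si-hnRNPK, 16.4 in the LBCS-labelled library and 15.8 in si-PTBP1. It was highest in si-hnRNPK and lower than control in the other knockdowns. The ratio of si-hnRNPK to control was 1.73 (1.61 to 1.87), a difference of 0.76, with 6.24% of the genes tested above it. At a threshold of 1.5-fold in place of the threshold of 1, TNFRSF10B and FAS were the 2 members raised in si-hnRNPK, and 9.89% of all genes tested were raised at that threshold. FAS differed by -0.24 in the LBCS-labelled library and by -0.29 in si-PTBP1.

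TNFRSF10A (ENSG00000104689), which encodes the other TRAIL death receptor, DR4, had no value above control beside that of DR5. TNFRSF10A was at 71.2 CPM in control, 57.5 in si-hnRNPK, 56.8 in the LBCS-labelled library and 63.7 in si-PTBP1, so control was the highest of the 4. The differences were -0.30, -0.32 and -0.16 in that order of knockdowns. Its exons share 7.01% of their windows of 100 bases with other annotated genes, which include the antisense gene TNFRSF10A-AS1, and the reads of these stretches could not be assigned here.

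TNFRSF10D (ENSG00000173530), which encodes the decoy receptor DcR2, was at 116.9 CPM in control, 83.6 in si-hnRNPK, 91.0 in the LBCS-labelled library and 92.3 in si-PTBP1. Control was the highest and si-hnRNPK the lowest. The ratio of si-hnRNPK to control was 0.715 (0.689 to 0.743), and the differences were -0.48, -0.36 and -0.34. Against the geometric mean of the other libraries in place of control they were -0.25, -0.09 and -0.06, so their size depended on the reference. TNFRSF10D is the member whose 3' UTR holds the letters of the control siRNA, and any part of this match in its levels was not tested. TNFRSF10C, which encodes the other TRAIL decoy receptor, DcR1, was between 1.84 and 2.58 CPM.

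**Figure D2:**
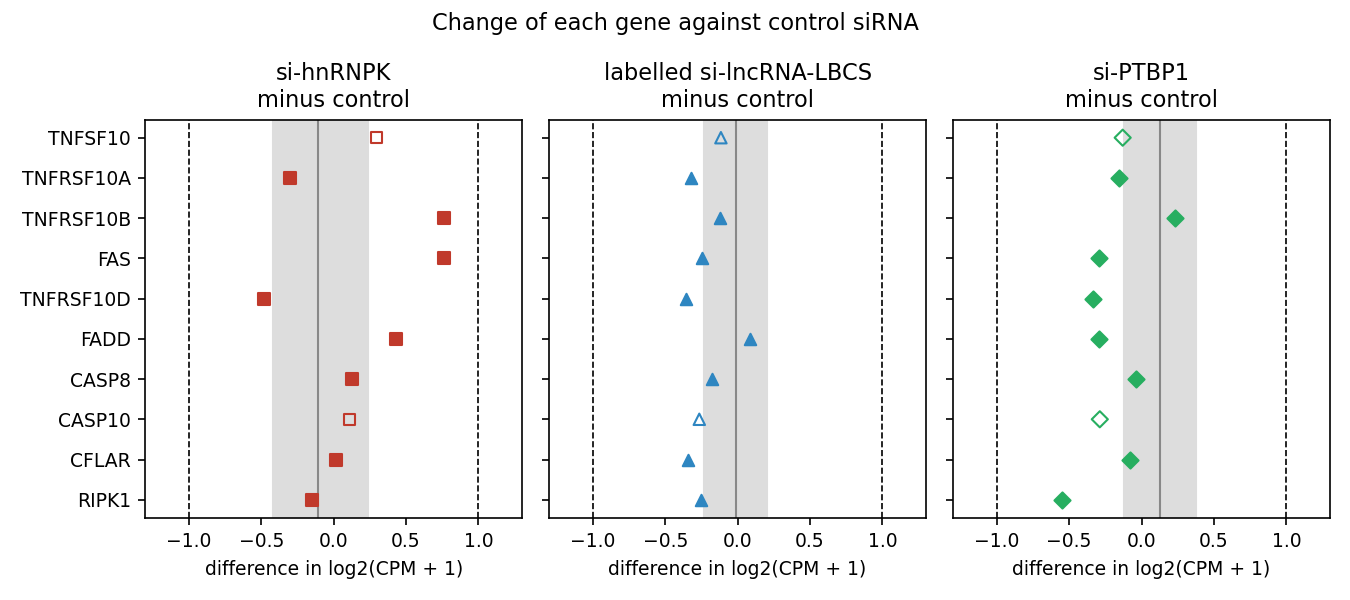
Difference in log2(CPM + 1) of each member against control in the 3 knockdown libraries; each point is 1 gene (open where the gene was below 1 CPM in both libraries), dashed lines mark a difference of 1 in either direction, and the grey line and band give the median and the interquartile range of all genes tested. All points lie inside the dashed lines, TNFRSF10B and FAS are highest at 0.76 in si-hnRNPK, and RIPK1 is lowest at -0.55 in si-PTBP1.

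Ratios between 2 genes of the same library do not depend on how libraries are scaled. The pairs given here were chosen after the values were seen, and a read ratio describes reads and not levels per length. Reads of TNFRSF10B per read of TNFRSF10D, that is of the death receptor DR5 per decoy DcR2, were 0.996 in control, 2.36 in si-hnRNPK, 1.17 in the LBCS-labelled library and 1.48 in si-PTBP1. The si-hnRNPK ratio was 2.37 times that of control (2.26 to 2.49), and that of si-PTBP1 was 1.49 times (1.42 to 1.56). Reads of TNFRSF10B per read of TNFRSF10A were 1.64, 3.44, 1.88 and 2.14 in the same order, again highest in si-hnRNPK. Reads of TNFRSF10A per read of TNFRSF10D were 0.609, 0.688, 0.624 and 0.690, or 1.03 to 1.13 times the control ratio in the knockdown libraries. The ratios that differed most from control were therefore both ratios with TNFRSF10B.

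**Figure D3:**
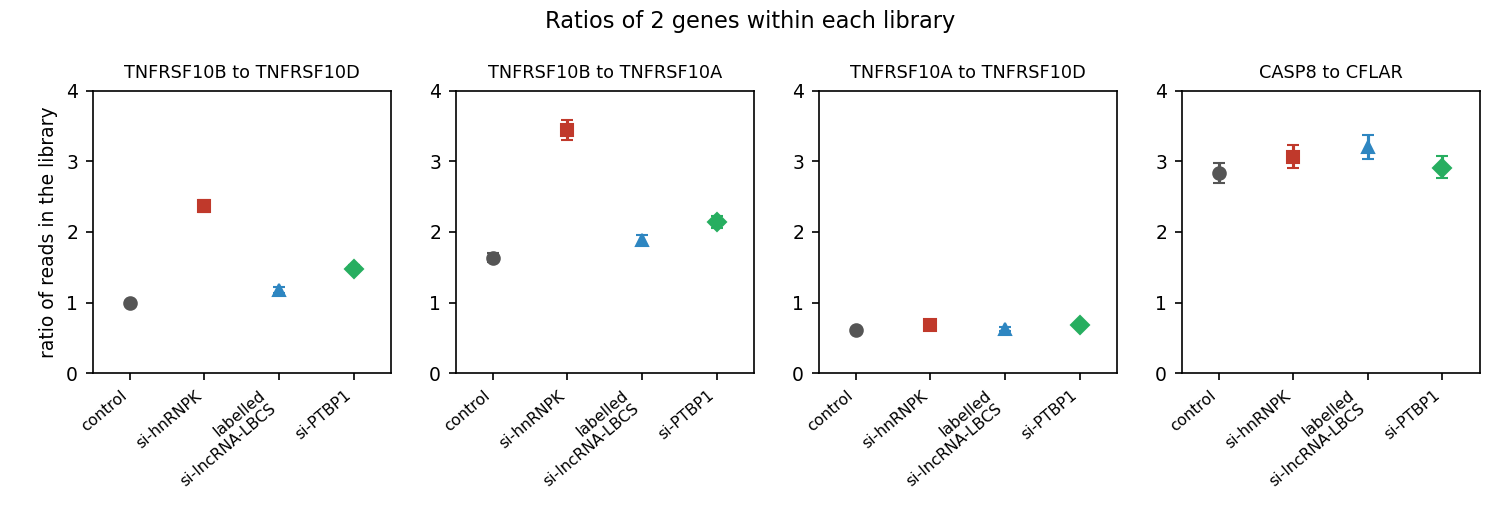
Ratio of the reads of 2 genes within each of the 4 libraries; each point is 1 library with its 95% interval of counting error, on linear axes from 0. The ratio of TNFRSF10B to TNFRSF10D runs from 0.996 in control to 2.36 in si-hnRNPK, while the ratio of CASP8 to CFLAR stays between 2.83 and 3.20.

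FADD (ENSG00000168040, plus strand of chromosome 11, 70203163 to 70207390), the adaptor between receptor and caspase, was at 17.2 CPM in control, 23.6 in si-hnRNPK, 18.4 in the LBCS-labelled library and 13.9 in si-PTBP1. It was highest in si-hnRNPK, at 1.37 times control (1.26 to 1.49), and lowest in si-PTBP1. The differences were 0.43, 0.09 and -0.29, and 15.1% of genes tested in si-hnRNPK lay above FADD. An antisense gene, AP000879.1, which the tables do not list, covers 46.8% of the FADD windows of 100 bases, so its reads cannot be told from those of FADD if the counting ignored strand.

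CASP8 (ENSG00000064012, plus strand of chromosome 2, 201233443 to 201287711), the initiator caspase of the pathway, varied little. It was at 99.5 CPM in control, 108.8 in si-hnRNPK, 87.8 in the LBCS-labelled library and 96.8 in si-PTBP1, with differences of 0.13, -0.18 and -0.04. The interval of its ratio to control included 1 in si-PTBP1. CASP10 (ENSG00000003400, chromosome 2, 201182881 to 201229406), the second initiator caspase, was below 1 CPM in each library. It had 47 reads in control, 49 in si-hnRNPK, 33 in the LBCS-labelled library and 25 in si-PTBP1, or 0.766, 0.902, 0.470 and 0.446 CPM. Control and si-hnRNPK were close, and the other pair of libraries was lower.

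CFLAR (ENSG00000003402, chromosome 2, 201116104 to 201176687), which encodes the caspase-8 inhibitor c-FLIP, was at 35.1 CPM in control, 35.5 in si-hnRNPK, 27.5 in the LBCS-labelled library and 33.2 in si-PTBP1. The library labelled si-lncRNA-LBCS was the lowest, with a difference of -0.34, and the intervals in si-hnRNPK and si-PTBP1 included a ratio of 1. Reads of CASP8 per read of CFLAR were 2.83 in control, 3.06 in si-hnRNPK, 3.20 in the LBCS-labelled library and 2.91 in si-PTBP1. These were 1.08, 1.13 and 1.03 times the control ratio, with an interval in si-PTBP1 from 0.955 to 1.10. The ratio counts both the long and short forms of c-FLIP together, since the tables hold 1 value for each gene.

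RIPK1 (ENSG00000137275, plus strand of chromosome 6, 3063991 to 3115187), the kinase at the branch between survival and death, was at 53.8 CPM in control, 48.4 in si-hnRNPK, 44.9 in the LBCS-labelled library and 36.4 in si-PTBP1. Control was the highest and si-PTBP1 the lowest. The ratio of si-PTBP1 to control was 0.677 (0.640 to 0.715), a difference of -0.55, and 3.60% of the genes tested in si-PTBP1 lay below it. This was the lowest difference of a tested member in any knockdown library. In si-hnRNPK the difference was -0.15. The RIPK1 3' UTR holds 1 seed match of hnRNPK siRNA 2 and none of the 2 PTBP1 siRNAs, and any part of such matches in these levels was not tested.

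Per kilobase of exon, on which levels of different genes can be compared, the order of the members differed in part between libraries. CFLAR, CASP10 and TNFSF10 came last in each library. TNFRSF10B had the highest value in each knockdown library. CASP8 lay above TNFRSF10A in each knockdown library, with intervals that overlapped in si-PTBP1. In control TNFRSF10D was first at 33.0 CPM per kilobase, followed by TNFRSF10B at 28.1, TNFRSF10A at 26.2 and CASP8 at 25.3. The intervals of TNFRSF10A and CASP8 overlapped. RIPK1 at 12.9, FADD at 9.36 and FAS at 7.58 came next, then CFLAR at 1.70, and CASP10 at 0.115 and TNFSF10 at 0.0584 were last, with intervals that overlapped. In si-hnRNPK TNFRSF10B was first at 47.7 CPM per kilobase, well above CASP8 at 27.6 and TNFRSF10D at 23.6. In that library FAS at 13.2 and FADD at 12.8 lay above RIPK1 at 11.6, while in the other 3 libraries RIPK1 lay above both, with an interval that overlapped that of FADD in the LBCS-labelled library. In the LBCS-labelled library TNFRSF10B at 25.8 and TNFRSF10D at 25.7 overlapped, and in si-PTBP1 TNFRSF10B at 33.0 was above TNFRSF10D at 26.1. The level of CFLAR depends on its 20.6 kb of annotated exons, 8.003% of whose windows are shared with other genes.

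The other genes of the pathway were taken from 4 lists, 58 of whose genes are reported here, of which 52 were listed and 45 to 47 were tested. In si-hnRNPK 5 of 47 were raised and 0 were lowered, or 10.6% raised against 3.55% of all genes and 0% lowered against 3.93%. TNF, among the 5, was tested only through si-hnRNPK, where it was high. The lowest differences there, short of the threshold, were those of TNFRSF1A at -0.97, TNFRSF25 at -0.96 and BIRC2 at -0.87. In the LBCS-labelled library 0 of 45 were raised and 3 were lowered, or 6.67% lowered against 1.01% of all genes. In si-PTBP1 1 of 46 was raised and 2 were lowered, or 2.17% raised against 2.92% of all genes and 4.35% lowered against 0.613%. The medians of these genes were 0.08, -0.05 and -0.03 in si-hnRNPK, the LBCS-labelled library and si-PTBP1. Over all genes tested the medians were -0.11, -0.01 and 0.12 in that order. All gene lists here were chosen with earlier results of these data known, so such shares and medians describe the genes and test nothing.

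On the list of receptor complex, ubiquitin and NF-kB genes, 4 of 26 were raised in si-hnRNPK, where 3.55% of all genes were raised. TRAF1, an adaptor of TNF receptors, was at 34.2 CPM in control, 105.6 in si-hnRNPK, 3.45 in the LBCS-labelled library and 5.37 in si-PTBP1. It was raised by 1.60 in si-hnRNPK and lowered by a difference of -2.98 and of -2.46 in the other knockdowns. TRADD, the adaptor of TNF receptor 1, was raised from 8.94 to 23.1 CPM, a difference of 1.28. TNFAIP3, which encodes the NF-kB inhibitor A20, was raised from 15.3 to 38.2 CPM (1.27), and NFKBIA, which encodes the inhibitor IkB alpha, from 243.3 to 494.7 CPM (1.02).

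NFKBIA was lowered in the LBCS-labelled library, to 88.9 CPM, a difference of -1.44. BIRC3, which encodes the ubiquitin ligase cIAP2, was at 281.6 CPM in control, 268.9 in si-hnRNPK, 66.8 in the LBCS-labelled library and 133.7 in si-PTBP1. It was lowered in the last pair of libraries, by differences of -2.06 and -1.07. TRAF1, TNFAIP3, NFKBIA and BIRC3 are themselves known targets of NF-kB, and their own regulation was not tested here. Against the geometric mean of the other libraries in place of control, BIRC3 in si-PTBP1 was no longer past the threshold.

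Among the other ligands, receptors and decoys, TNF had 11 reads in control and 105 in si-hnRNPK, or 0.179 and 1.93 CPM. It was raised by 1.31. It reached 1 CPM only in si-hnRNPK, so it was tested only through the library where it was high. It had 7 reads in the LBCS-labelled library and 31 in si-PTBP1, so si-hnRNPK was the highest. TNFRSF21, which encodes the death receptor DR6, was at 14.1 CPM in control, 21.7 in si-hnRNPK, 13.7 in the LBCS-labelled library and 43.8 in si-PTBP1, and was raised in the last by 1.57. TNFRSF1A, the gene for TNF receptor 1, was at 55.4 CPM in control and 27.9 CPM in si-hnRNPK, the lowest of the 4 libraries, and did not pass the threshold.

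Of the 13 genes reported here from the list of the mitochondrial arm and later steps, 0 were raised or lowered in any knockdown library. Between 0.378% and 3.93% of all genes were raised or were lowered in a comparison, so 0 of 13 is close to what the whole table shows. This arm amplifies the death signal through the release of mitochondrial proteins. Their differences lay between -0.70 and 0.33 in si-hnRNPK, between -0.26 and 0.44 in the LBCS-labelled library and between -0.35 and 0.69 in si-PTBP1. XIAP, which encodes an inhibitor of caspases, was at 64.8 CPM in control, 81.8 in si-hnRNPK, 76.7 in the LBCS-labelled library and 87.4 in si-PTBP1, so control was the lowest of the 4. On the necroptosis list 1 of 3 genes was tested, the effector gene MLKL, which was at 14.7 CPM in control and 9.81 to 11.4 CPM in the knockdown libraries.

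**Figure D4:**
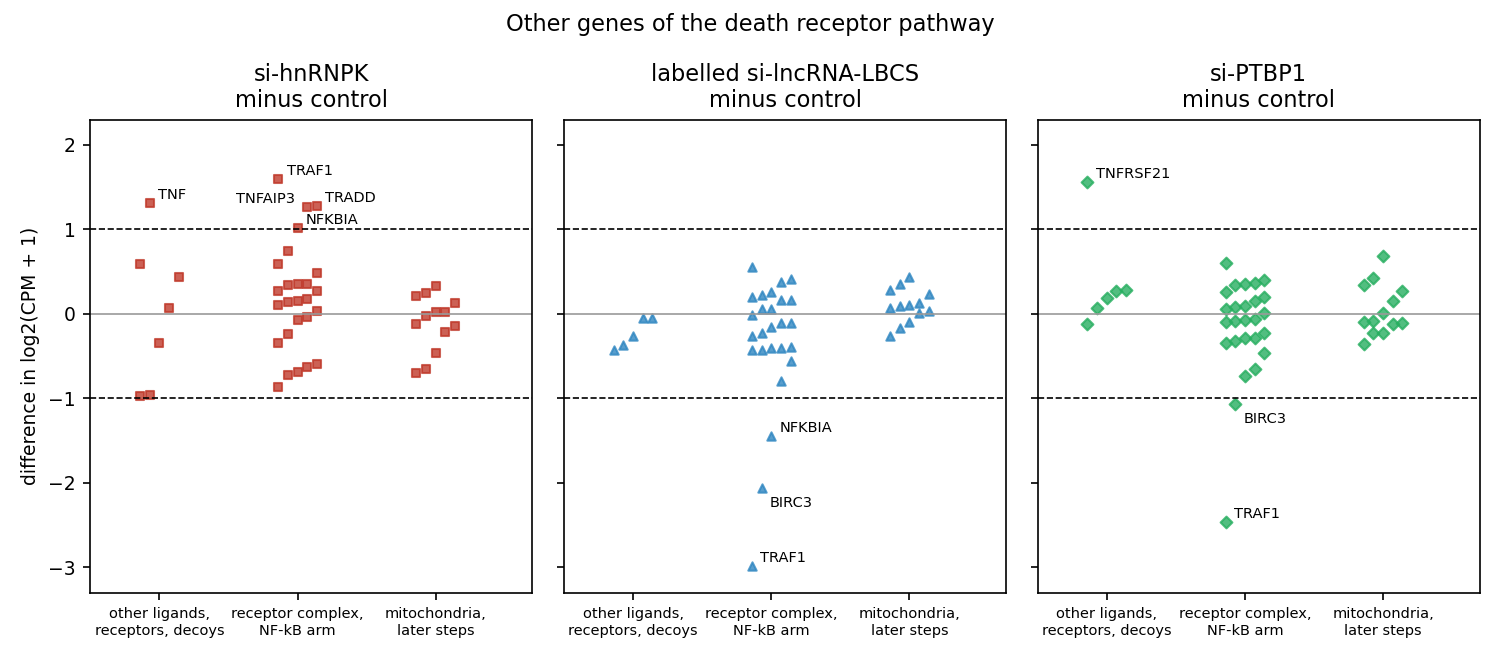
Difference in log2(CPM + 1) against control of the other tested genes reported here from 3 of the pathway lists in the 3 knockdown libraries; each point is 1 gene, points are spread sideways for clarity, and dashed lines mark a difference of 1 in either direction. Genes past the lines are named, and TRAF1 lies at 1.60 in si-hnRNPK, -2.98 in the LBCS-labelled library and -2.46 in si-PTBP1.

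TNFRSF10B and FAS are known as targets of p53, and TNFRSF10B also as a target of the stress factor CHOP, so the other genes on lists of such targets were read beside them. Of 13 tested p53 targets 2 were raised in si-hnRNPK, BBC3 by 1.71 and BTG2 by 1.14, where 3.55% of all genes were raised. In the LBCS-labelled library 0 were raised or lowered, where 0.378% and 1.01% of all genes were. In si-PTBP1 0 were raised or lowered, where 2.92% and 0.613% of all genes were. CDKN1A, the cell cycle inhibitor that p53 switches on, was at 116.2 CPM in control and 103.5 in si-hnRNPK, and MDM2, the p53 antagonist, was at 74.1 and 70.6 CPM. Of 8 ATF4 and CHOP genes 2 were raised in si-hnRNPK, ATF3 by 2.26 and PPP1R15A by 1.38, against the same 3.55% of all genes, while DDIT3, which encodes CHOP itself, was at 10.7 CPM in control and 13.7 in si-hnRNPK. In si-PTBP1 2 of the 8 were lowered, CHAC1 with a difference of -1.61 and ASNS with -1.64, where 0.613% of all genes were lowered. The list medians in si-hnRNPK were 0.14 for p53 targets and 0.35 for ATF4 and CHOP genes, against -0.11 over all genes, and their part in the levels of TNFRSF10B and FAS was not tested.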

How the data were processed

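The authors deposited 1 table for each library, with Ensembl gene identifiers and CPM values. The genome build is hg19 per the submitters' processing notes, and the aligner, the counting method, its use of strand and the annotation are not given in the sources used here. Within a tolerance of 0.01 read, 100% of the deposited CPM values of genes with reads were whole multiples of 1 read, which gave the reads, from 54301152 to 70232674 in total. A small placeholder stands for genes without reads (0.0046 of a read for control and 0.5 for each knockdown), and these were counted as 0 reads. The precision at this depth is given by exact Clopper-Pearson intervals. Groups follow the sample titles, with 1 library in each, so no replicate test was made. Identifiers were matched to symbols for 25647 of 27629 genes. GENCODE release 29 (GRCh38) gave positions, exon lengths and 3' UTRs by identifier, and RefSeq (GRCh38.p14) gave promoters.

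Differences in log2(CPM + 1) used a pseudocount of 1, a filter of 1 CPM and a threshold of 1. The alternatives were median-of-ratios scaling over 12362 genes, a threshold of 1.5-fold, a pseudocount of 0.1, a filter of 5 CPM, the geometric mean of the other libraries as reference and an exact binomial comparison of the reads. The named genes are the 10 members, the targeted genes and each gene of the lists past the threshold in any comparison. Genes named with values although they did not pass were chosen after their values were seen. Some genes of the pathway lists are not reported here and were left out of the counts. The members and all lists were chosen with earlier results of these data known. Calculations ran in Python 3.11.15 with scipy 1.17.1, numpy 2.4.6, statsmodels 0.14.6 and pandas 2.3.3, and plots in matplotlib 3.10.9.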

Additional observations from a re-analysis of the deposited data

How the results depend on the processing

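No paired analysis was possible because each condition is 1 library. For the same reason no replicate could be left out. The count of members past the threshold was 0 in every comparison under every alternative run for it, except that a 1.5-fold threshold gave 2 members in si-hnRNPK, TNFRSF10B and FAS. Of 90 values of single members under a pseudocount of 0.1, median-of-ratios scaling or the geometric mean of the other libraries as reference, 59 stayed within counting error of the reported value and 31 moved beyond it. Of these, 18 moved with the geometric mean and 13 with median-of-ratios scaling. The sign turned in 3, all with the geometric mean: RIPK1 in si-hnRNPK to 0.12, TNFRSF10A in si-PTBP1 to 0.05 and CFLAR in si-PTBP1 to 0.03. TNFSF10 in si-hnRNPK passed the threshold with a pseudocount of 0.1, at 1.13, on 20 and 7 reads. Relative to control, the median-of-ratios scale was -0.11 for si-hnRNPK and 0.13 for si-PTBP1. With that scaling TNFRSF10B and FAS in si-hnRNPK were both at 0.87, RIPK1 in si-PTBP1 was at -0.67, and the medians of the tested members were 0.18 in si-hnRNPK, -0.35 in si-PTBP1 and -0.24 in the LBCS-labelled library. The same alternatives for the other pathway genes were added after seeing the data. For them a pseudocount of 0.1 and the geometric mean each brought TNFRSF25 below -1 in si-hnRNPK, and the geometric mean brought TNFAIP3 below -1 in the LBCS-labelled library. Depth limits TNFSF10 and CASP10, which had at most 49 reads in any library.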
